A study of Mus musculus with 2 samples.

Results

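A set of 10 genes that make, bind, reduce or break down retinoids, the vitamin A derivatives, was followed in cultured mouse keratinocytes, the cells that build the epidermis. All probe sets whose single gene symbol in the platform annotation was Adh1, Adh7, Sdr16c5, Rdh10, Dhrs3, Dhrs9, Aldh1a3, Cyp26b1, Crabp1 or Crabp2 were taken. This gave 13 probe sets for 9 of the 10 genes, out of 45101 probe sets and 18193 genes. Dhrs9 had no probe set under its symbol, so it has no signal here and enters only the motif search and the neighbours. The genes were chosen from lists drawn up with the signal ratios of these same arrays known, so the ratios below describe the genes and test nothing.

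One culture came from newborn mice whose MED1 gene was floxed on both alleles and which carried K5Cre, in which the keratin 5 promoter of basal keratinocytes drives Cre recombinase (MED1epi-/-), labelled keratinocyte-specific MED1 null. The control culture is titled MED1flox/flox, so that it too would carry the floxed alleles, while its source is given as wild-type. Both were primary cultures of C57BL/6 epidermal cells on collagen in CnT07 medium, the labels name no retinoid treatment, and the number of mice behind each culture is unstated in the sources. Each culture was hybridised to 1 Affymetrix mouse genome array, so no value has a replicate and no test between the cultures was possible.

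Keratinocytes take up retinol and oxidise it in a pair of steps, first to retinal and then to retinoic acid. Alcohol dehydrogenases and short-chain dehydrogenases carry out the first step, which other short-chain enzymes reverse, and aldehyde dehydrogenases of the ALDH1A family carry out the second. Retinoic acid is bound in the cytosol by CRABP proteins, acts in the nucleus through RAR and RXR receptors, and is hydroxylated by CYP26 enzymes for removal. In cultured keratinocytes retinoic acid is known for holding back terminal differentiation, and MED1, a subunit of the Mediator complex, is a coactivator that binds nuclear receptors.

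Several properties of the pair of arrays bear on every value below. Ratios were taken after raising signals under 67.7, the median signal pooled over both arrays and used as a floor, to that value, since low signals of this kind are noisy. The log2 ratio of probe sets of the same gene had a pooled SD of 0.31 over 4916 genes. This spread between probe sets is the only one the arrays offer, and it holds no variation between cultures, mice or hybridisations. Med1 itself read 1039 on the MED1-null-labelled array and 462.7 on the control array, and all 7 of its probe sets were higher on the MED1-null-labelled array. Which exons were deleted is not in the labels, so these probe sets check nothing about the deletion, and the array is named by its label. The arrays also differed in sex-linked RNA, with Xist at 55.7 on the MED1-null-labelled array and 5461 on the control array, and the Y-linked gene Eif2s3y at 2164 on the MED1-null-labelled array and 4.2 on the control array. Sex of the mice and genotype therefore cannot be told apart.

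Of the 10 genes, 8 reached the floor on at least 1 array, with 3 higher on the MED1-null-labelled array by 2-fold or more, 2 lower by as much and 3 within 2-fold. The 3 higher genes were Adh1 and Sdr16c5, which act on retinol, and Cyp26b1, which breaks down retinoic acid. The 2 lower genes were Aldh1a3, which makes retinoic acid, and Crabp1, which binds it. Adh1 reached the floor only with its MED1-null-labelled signal, so it had to be higher there. Among all 11621 genes that reached the floor, 1.63% were higher by 2-fold or more and 2.23% lower by as much, together 3.86%, and nothing is read from the retinoid genes against these shares because known ratios entered the choice of the genes. Among all genes beyond 2-fold, 42.3% were higher and 57.7% lower, and after a lowess correction of the ratio on signal 31.3% were higher and 68.7% lower. The balance turned with the floor, with 54.5% higher and 45.5% lower for a floor at the 25th percentile and 54.0% higher and 46.0% lower with none. The 8 genes had a median log2 ratio of 0.27 and ranged from -1.79 to 1.99, beside a median of 0.06 over all 11621 genes.

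**Figure D1:**
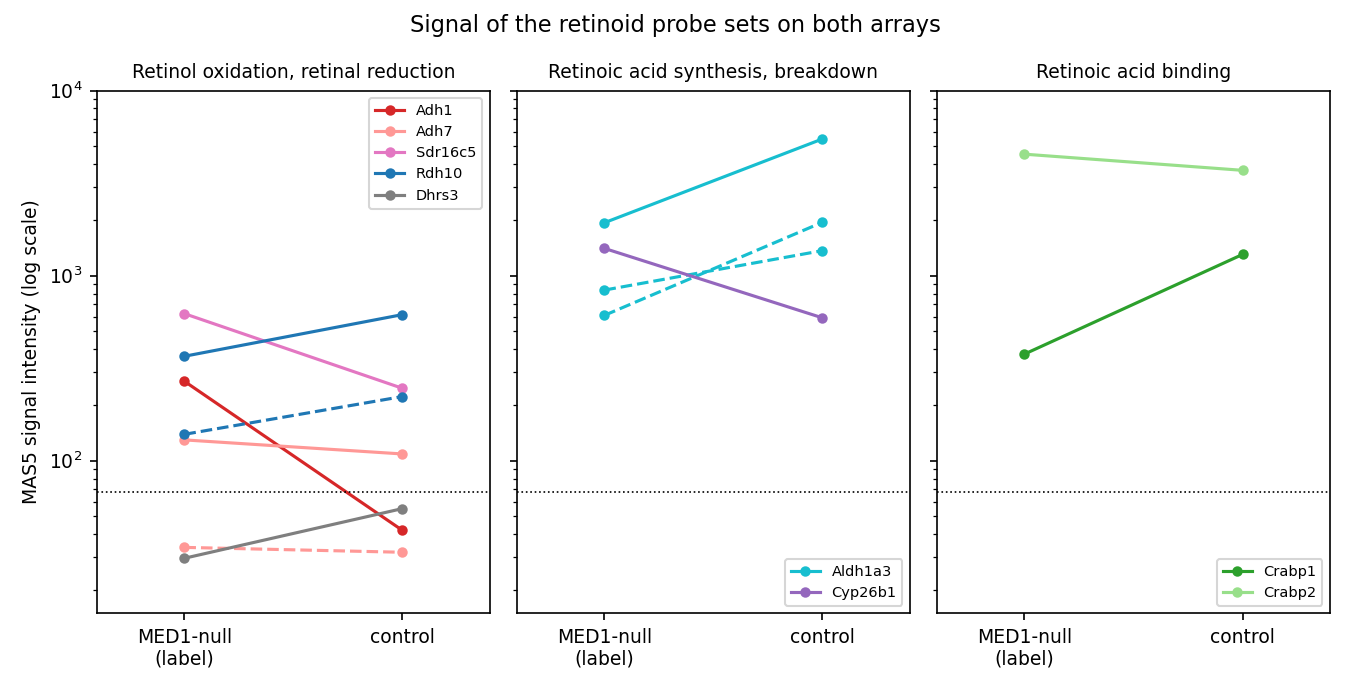
Signal intensity of each of the 13 retinoid probe sets (log axis) on the MED1-null-labelled array, at the left of each panel, and on the control array, at the right. Solid lines mark the probe set used for a gene, broken lines its other probe sets, and the dotted line the floor of 67.7. Lines of Adh1, Sdr16c5 and Cyp26b1 stand higher at the left, and those of Aldh1a3, Rdh10 and Crabp1 higher at the right.

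The retinol-oxidising alcohol dehydrogenases lie next to each other on chromosome 3 and differed in how far apart the arrays were. Adh1, a cytosolic alcohol dehydrogenase that oxidises retinol as well as ethanol, had 1 probe set (1416225_at), which read 268.5 on the MED1-null-labelled array and 42 on the control array. The control signal lay below the floor, and Adh1 was at least 3.97-fold higher (log2 ratio at least 1.99). Since the control signal is below the floor, this is a bound. No retinoid gene is ranked among the measured genes, because known ratios entered the choice of the genes. Adh7, a class of alcohol dehydrogenase found mainly in epithelia such as that of the stomach, read 129.5 on the MED1-null-labelled array and 108.7 on the control array with its brighter probe set (1450110_at). That difference of 1.19-fold (log2 ratio 0.25) was smaller than the spread between probe sets. The other Adh7 probe set (1421058_at) read 34 on the MED1-null-labelled array and 32 on the control array, both below the floor. The nearest gene on the far side of Adh1, Adh6a, was also below the floor on both arrays, at 7.6 on the MED1-null-labelled array and 8.9 on the control array.

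The sequences before the starts of both genes are shown because these neighbours differ in their ratios. They are the 250 bases before the annotated start in RefSeq on GRCm38.p6, for Adh1 at chr3:138277335-138277584 and for Adh7 at chr3:138217523-138217772, both on the plus strand. Capitals mark a 6-base receptor motif, AGGTCA or AGTTCA or GGGTCA or GGTTCA on either strand, or the TATA motif TATAAA on the gene's strand.
Adh1: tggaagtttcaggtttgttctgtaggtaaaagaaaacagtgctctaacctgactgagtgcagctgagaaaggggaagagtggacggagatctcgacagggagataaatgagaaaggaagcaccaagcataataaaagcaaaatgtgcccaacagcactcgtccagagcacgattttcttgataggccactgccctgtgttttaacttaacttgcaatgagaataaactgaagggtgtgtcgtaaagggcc
Adh7: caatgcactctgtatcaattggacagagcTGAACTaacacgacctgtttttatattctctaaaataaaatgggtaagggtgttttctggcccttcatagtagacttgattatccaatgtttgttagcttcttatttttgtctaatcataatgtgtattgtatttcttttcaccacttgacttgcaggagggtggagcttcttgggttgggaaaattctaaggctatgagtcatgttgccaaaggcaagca
The Adh1 window held neither kind of motif. The Adh7 window held 1 receptor motif, TGAACT, which is AGTTCA on the opposite strand, starting 221 bases before the start. At least 1 such receptor motif occurred in 38.6% of 32851 windows of this length in the table, and TATAAA in 7.59%. A direct repeat of the receptor motifs, the arrangement bound by pairs of RAR and RXR, was searched with spacers of 1, 2 and 5 bases, and occurred in 0.164%, 0.174% and 0.0883% of the windows. None of the 8 windows held for 6 of the genes (Adh1, Adh7, Dhrs3, Dhrs9, Cyp26b1 and Crabp1) had such a repeat, which says only that these letters are not in these windows.

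Of the membrane-bound short-chain dehydrogenases in the set that oxidise retinol, Sdr16c5 was beyond 2-fold and Rdh10 was not. Sdr16c5, an epidermal retinol dehydrogenase, had 1 probe set (1440523_at), which read 622.7 on the MED1-null-labelled array and 246 on the control array. Its signal was 2.53-fold higher on the MED1-null-labelled array (log2 ratio 1.34). Sdr16c6, the related gene beside it on chromosome 4, was on the other side of 0, at 718.9 on the MED1-null-labelled array and 1136 on the control array (1.58-fold lower).

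Rdh10, the dehydrogenase that makes most of the retinal in mouse embryos, had 2 probe sets. The brighter (1426968_a_at) read 366.5 on the MED1-null-labelled array and 615.4 on the control array, and the other (1460632_at) read 138.8 on the MED1-null-labelled array and 222.1 on the control array. Both were lower on the MED1-null-labelled array, by 1.68-fold and 1.60-fold, with a mean log2 ratio of -0.71 ± 0.05 (SD over 2 probe sets). This stayed within 2-fold. It was larger than the pooled spread between probe sets, which holds no variation between cultures.

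Dhrs3, a short-chain dehydrogenase that turns retinal back into retinol and is known to be induced by retinoic acid, had 1 probe set (1448390_a_at). It read 29.7 on the MED1-null-labelled array and 55.1 on the control array. Both signals lay below the floor, so no ratio is given.

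RNA for the enzyme that completes the synthesis of retinoic acid was lower on the MED1-null-labelled array. Aldh1a3, also known as retinaldehyde dehydrogenase 3, was represented by 3 probe sets, each lower there. The brightest (1448789_at) read 1931 on the MED1-null-labelled array and 5474 on the control array, 2.84-fold lower (log2 ratio -1.50). A second (1417642_at) read 609.8 on the MED1-null-labelled array and 1942 on the control array, 3.18-fold lower. The third (1427395_a_at), whose suffix marks probes for several transcripts of the gene, read 835 on the MED1-null-labelled array and 1364 on the control array and was 1.63-fold lower, within 2-fold. The mean log2 ratio was -1.29 ± 0.51 (SD over 3 probe sets), so the probe sets of Aldh1a3 had a common direction but a wider spread than the pooled SD. The other retinaldehyde dehydrogenases, Aldh1a1 and Aldh1a2, read at most 5.8 on either array.

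RNA for an enzyme that removes retinoic acid was higher on the MED1-null-labelled array, and neither protein nor retinoic acid was measured. Cyp26b1, a cytochrome P450 that hydroxylates retinoic acid and is itself a known retinoic acid target, had 1 probe set (1460011_at). It read 1402 on the MED1-null-labelled array and 591 on the control array, 2.37-fold higher (log2 ratio 1.25). Of the other members of its family, Cyp26a1 was below the floor on both arrays, at 20.8 on the MED1-null-labelled array and 7.4 on the control array, and Cyp26c1 was not analysed here. The window before the Cyp26b1 start, at chr6:84593811-84594060 on the minus strand of GRCm38.p6, is shown as that of a known retinoic acid target among the genes beyond 2-fold.
Cyp26b1: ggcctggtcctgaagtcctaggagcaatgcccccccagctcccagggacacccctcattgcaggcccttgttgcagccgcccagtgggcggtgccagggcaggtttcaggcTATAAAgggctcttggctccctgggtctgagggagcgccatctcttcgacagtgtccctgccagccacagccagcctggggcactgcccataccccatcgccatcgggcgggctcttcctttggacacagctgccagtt
It held no receptor motif and 1 TATAAA, in capitals, starting 139 bases before the annotated start, and its GC content was 64.8%, against a median of 52.4% over all windows.

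**Figure D2:**
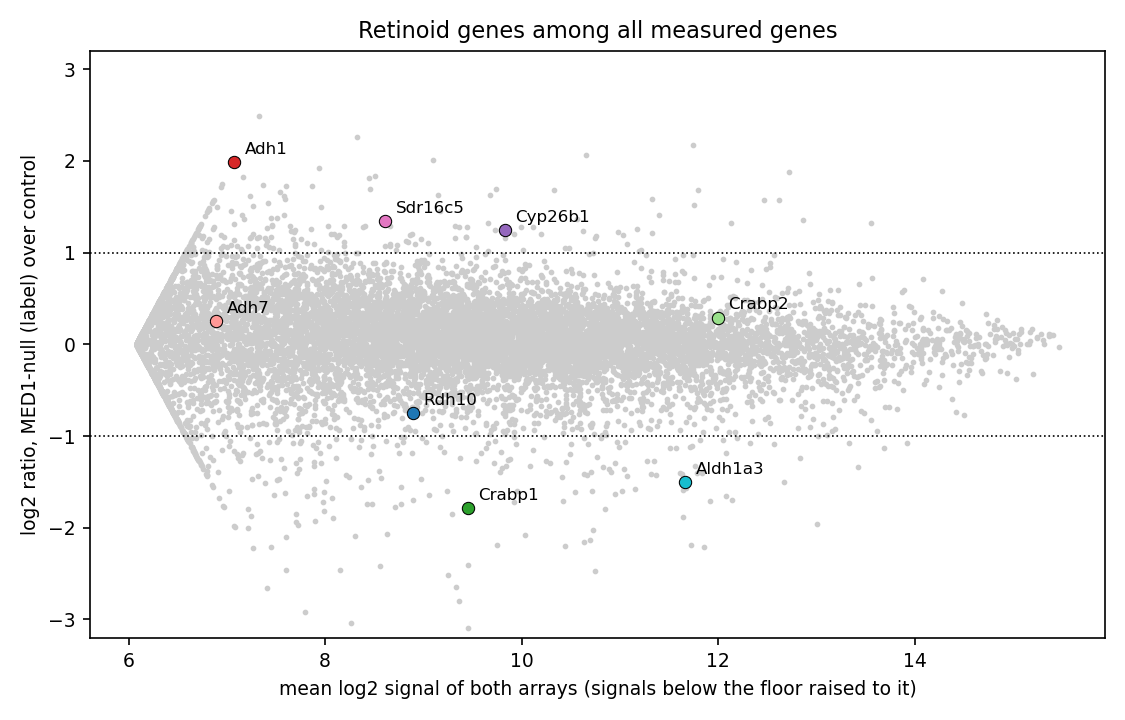
Log2 ratio of the MED1-null-labelled array over the control array (vertical axis) against the mean log2 signal of both arrays (horizontal axis) for the measured genes, in grey, with the 8 measured retinoid genes in colour. Dotted lines mark 2-fold, and 4 measured genes lie beyond the vertical axis. Adh1, with a bound of 1.99, lies among the dim genes at the left, while Aldh1a3, at -1.50, lies among the bright ones.

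The genes of the cytosolic retinoic acid-binding proteins had unlike ratios. Crabp1 had 1 probe set (1448326_a_at), which read 376.6 on the MED1-null-labelled array and 1301 on the control array. Its signal was 3.45-fold lower on the MED1-null-labelled array (log2 ratio -1.79). Crabp2, the paralog known to pass retinoic acid to RAR and the usual form of keratinocytes, read 4529 on the MED1-null-labelled array and 3705 on the control array (1451191_at). The Crabp2 difference of 1.22-fold (log2 ratio 0.29) was smaller than the spread between probe sets. The 250 bases before the Crabp1 start, at chr9:54764498-54764747 on the plus strand of GRCm38.p6, are shown because Crabp1 had the lowest ratio of the retinoid genes.
Crabp1: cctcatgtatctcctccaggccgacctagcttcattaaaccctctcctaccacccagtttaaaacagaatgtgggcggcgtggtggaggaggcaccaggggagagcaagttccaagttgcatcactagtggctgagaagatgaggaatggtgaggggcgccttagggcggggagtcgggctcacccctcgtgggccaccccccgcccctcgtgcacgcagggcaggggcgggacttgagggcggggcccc
This window held neither a receptor motif nor TATAAA, and 63.6% of its bases were G or C.

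Fibroblast and melanocyte markers were mostly lower on the MED1-null-labelled array, the direction of Crabp1 and Aldh1a3. Of 12 fibroblast markers, 10 were measured, and 9 of these were below 0, 3 of them by 2-fold or more. The median log2 ratio was -0.77. All 10 reached the floor on the control array but only 6 on the MED1-null-labelled array. Col3a1, Dcn, Twist2 and Thy1 reached it only on the control array, so their ratios are bounds that had to be below 0. The count below 0 and the median rest partly on these bounds. The summed signal of the 12 was 3010 on the MED1-null-labelled array and 7271 on the control array, mostly from Sparc, Vim and Fn1. A second probe set of Fn1 had a log2 ratio of -0.35, within 2-fold. The defining collagen gene Col1a1 was below the floor on both arrays (14.1 on the MED1-null-labelled array and 42.3 on the control array), and Dcn, which encodes decorin, read 35.2 on the MED1-null-labelled array and 118.1 on the control array. The 1 measured fibroblast marker above 0 was the collagen gene Col1a2, at 115.3 on the MED1-null-labelled array and 80.3 on the control array (1.44-fold higher). Of 9 melanocyte markers, all measured, 7 were below 0 with a median of -0.46, and 2 of these were lower by 2-fold or more. These were the receptor gene Kit, at 136.8 on the MED1-null-labelled array and 409.5 on the control array (2.99-fold), and Gpnmb, at 1125 on the MED1-null-labelled array and 3480 on the control array (3.09-fold). Second probe sets were within 2-fold, with log2 ratios of -0.88 for Kit and -0.16 for Gpnmb. The 2 melanocyte markers above 0 were Tyr and Sox10, at 0.25 and 0.01, and another Tyr probe set was at -1.26. The 9 markers' summed signal was 20632 on the MED1-null-labelled array and 28536 on the control array. The 7 measured keratinocyte markers were all above 0, with a median of 0.23, beside 6632 of all 11621 measured genes above 0. The 4 Trp63 probe sets that reached the floor ran from 0.59, for the one used, to 1.11, which is beyond 2-fold. Krt14 read 36849 on the MED1-null-labelled array and 32905 on the control array. Of the keratinocyte markers with a probe set, Krt15 alone was below the floor on both arrays, at 3.8 on the MED1-null-labelled array and 12.5 on the control array. Fewer cells of a type and less RNA per cell cannot be told apart in RNA from whole cultures, and the part of these other cells in the retinoid ratios was not tested. Endothelial, immune and Merkel or nerve markers were mostly below the floor or without a probe set, with 1 of 5, 2 of 6 and 1 of 5 measured. The 2 immune markers measured were Cd68, at 2799 on the MED1-null-labelled array and 2446 on the control array, and Lyz2, at 121.5 on the MED1-null-labelled array and 104 on the control array.

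The neighbours of the genes on their chromosomes, taken as the nearest protein-coding gene on either side with a probe set, were also examined. Of 18 neighbours outside the set, 15 were measured and 0 were beyond 2-fold. Over all measured genes 3.86% were beyond 2-fold, so 0 of 15 is near that share and nothing is read from it. Wdr61 and Ireb2 beside Crabp1 were 1.03-fold and 1.16-fold higher, Lrrk1 and Asb7 beside Aldh1a3 1.20-fold and 1.49-fold higher, and beside Cyp26b1, Dysf was 1.29-fold lower and Exoc6b 1.05-fold higher. The neighbour with the ratio farthest from 0 was Nes, beside Crabp2, at 182.7 on the MED1-null-labelled array and 106.5 on the control array (1.72-fold higher).

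Other genes of the pathway were set beside these. Over all measured genes, 1.63% were higher by 2-fold or more and 2.23% lower by as much. Of 18 further retinoid or related oxidoreductases, 9 were measured, with a median log2 ratio of 0.18. Of these, 1 was higher by 2-fold or more and 0 lower by as much. That gene was Rdh9, a cis-retinol and androgen dehydrogenase of the short-chain family, at 263.3 on the MED1-null-labelled array and 109.2 on the control array (2.41-fold higher), by a probe set whose suffix marks sequence shared with other genes. Of 11 genes of retinol uptake and storage, the acyltransferases Dgat2 and Dgat1 were the only 2 measured, 1.06-fold lower and 1.03-fold higher, and a second probe set of Dgat1 had a log2 ratio of 0.93. The retinol esterifying enzyme Lrat and the retinol receptor Stra6 were below the floor on both arrays.

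None of the 6 measured receptors and carriers differed 2-fold, beside 3.86% of all measured genes, and their median was 0.05. The retinoid X receptor gene Rxrb was 1.56-fold lower, at 351.9 on the MED1-null-labelled array and 548 on the control array, and the retinoic acid receptor gene Rara was 1.30-fold higher, at 144.8 on the MED1-null-labelled array and 111.1 on the control array. Rarg, the main retinoic acid receptor of the epidermis, read 1316 on the MED1-null-labelled array and 1115 on the control array. Rarb was below the floor on both arrays.

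Of 17 genes known to respond to retinoic acid, 6 were measured, 5 of them above 0, with a median of 0.21. Over all 11621 measured genes, 6632 were above 0. Tgm2 reached the floor only on the MED1-null-labelled array and had to be above 0, and another of its probe sets was at -0.27. Stra8 reached the floor only on the control array and had to be below 0. Cyp26b1 alone among the 6 reached a 2-fold difference. The list shares Cyp26b1, Crabp2 and Dhrs3 with the set described above, which was chosen with ratios known. Of 8 late differentiation genes that retinoic acid is known to lower in cultured keratinocytes, 6 were measured. By the probe set used, none was 2-fold apart, beside 3.86% of all measured genes, with 4 above 0, 2 below and a median of 0.43. Ivl, which encodes the envelope precursor involucrin, was 1.90-fold higher, at 708.5 on the MED1-null-labelled array and 373.8 on the control array. Its second probe set had a log2 ratio of 1.05, beyond 2-fold. The loricrin gene Lor was 1.74-fold higher, at 227.3 on the MED1-null-labelled array and 130.4 on the control array, while its second probe set had a log2 ratio of 0.03. Tgm1, which encodes the transglutaminase that crosslinks the envelope, was 1.74-fold lower, at 4430 on the MED1-null-labelled array and 7698 on the control array.

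**Figure D3:**
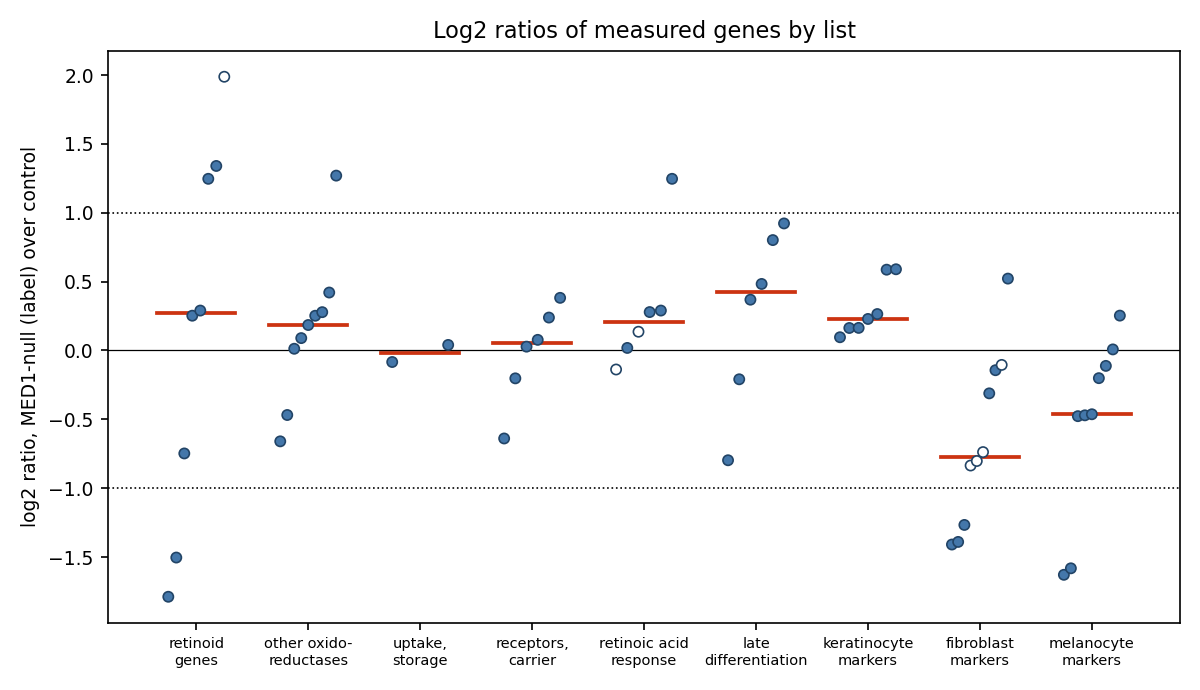
Log2 ratio of the MED1-null-labelled array over the control array for each measured gene, by list, with the list's median as a red bar. Open circles are genes below the floor on 1 array, for which the ratio is a bound, and dotted lines mark 2-fold. The retinoid genes, which were chosen with ratios known, run from -1.79 to 1.99, the latter a bound. Receptors and carriers lie between -0.64 and 0.38, and nothing is read from the contrast.

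The signal level behind these ratios differed between the genes. Among all genes whose higher signal was between 67.7 and 270.8, 4.61% lay beyond 2-fold, and Adh1 and Adh7 were in this class. Sdr16c5 and Rdh10 were among genes with 270.8 to 1083, of which 3.79% lay beyond 2-fold. Aldh1a3, Cyp26b1, Crabp1 and Crabp2 were above 1083, where 3.33% did. With the floor raised to 434.6, Adh1 and Adh7 were no longer measured and Sdr16c5 was at least 1.43-fold higher, while Cyp26b1 stayed at a log2 ratio of 1.25 and Crabp1 was at least 2.99-fold lower. The ratios of Aldh1a3, Cyp26b1 and Crabp2 were the same at each floor tried.

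**Figure D4:**
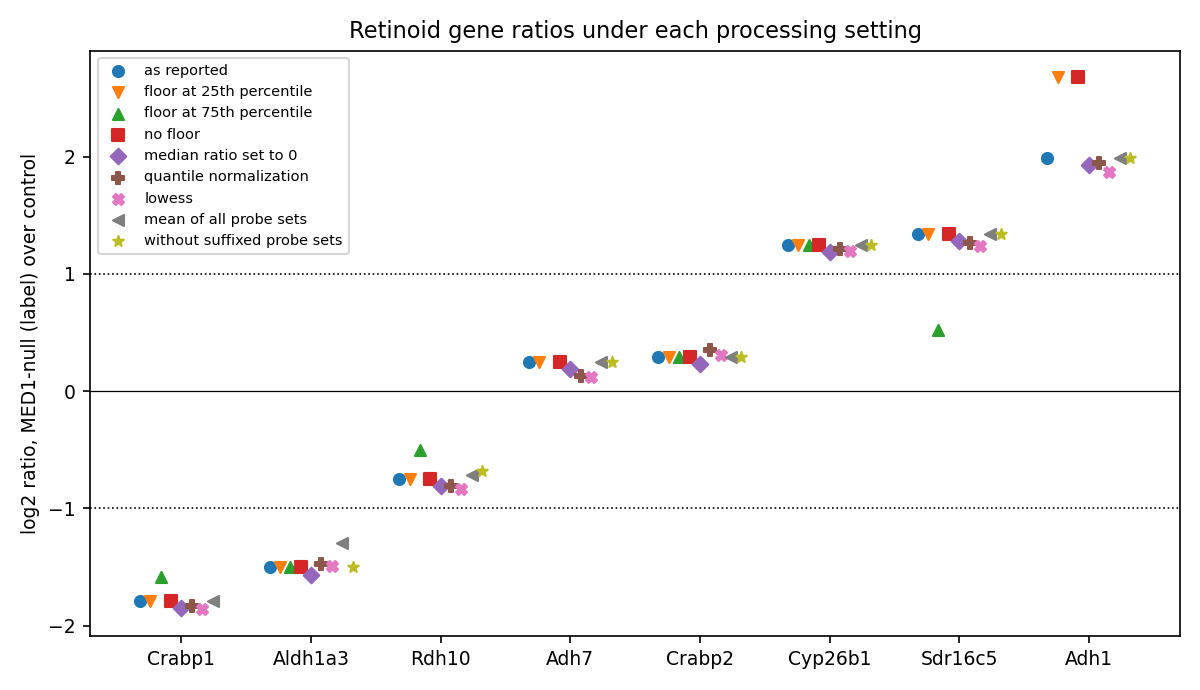
Log2 ratio of the MED1-null-labelled array over the control array for the 8 measured retinoid genes (horizontal axis) under the reported setting and 8 alternatives, 1 symbol each. Dotted lines mark 2-fold. Every plotted value of a gene keeps its side of 0, and Sdr16c5 falls within 2-fold (0.52) with the floor at the 75th percentile.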

How the data were processed

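RNA from 2 primary keratinocyte cultures was measured on 1 array each. The deposited values are linear signal intensities, 1 for each probe set, which the authors made with MAS5 (per the submitters' processing notes) in GeneChip Operating Software (per the design text). From the values, both arrays had been scaled to a mean of 500 after trimming 2% at each end. Of 45101 probe sets, 64 were controls, 34945 had 1 gene symbol in GEO's platform annotation, 932 several and 9160 none. All 13 retinoid probe sets were found by Entrez ID in RefSeq (GRCm38.p6), which was used for names, neighbours and the printed windows.

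Signals were raised to the pooled median (67.7), and a gene was represented by its probe set with the highest mean signal. Ratios were log2(MED1-null-labelled) minus log2(control), with 2-fold as the threshold. Only arithmetic was done, in Python 3.11.15 with pandas 2.3.3 and statsmodels 0.14.6. The counting was tested on simulated data. With 1 array per group no p-value could be had, and precision is limited by the number of arrays.

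The retinoid genes, gene lists and alternatives were chosen with earlier results of these data known. All retinoid genes were named. From the other retinoid lists, genes at least 2-fold apart were named, or else up to 2 farthest from 0. Sdr16c6, Aldh1a1, Aldh1a2, Cyp26a1, Lrat, Stra6, Rarg, Rarb, Tgm1, the markers and the neighbours were added with their values in view. The motif search used the 250 bases before each start. Proteins were not used here.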

Additional observations from a re-analysis of the deposited data

How the results depend on the processing

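No paired analysis was possible because each group has 1 array. Each of the 8 measured retinoid genes kept its side of 0 under every alternative that gave it a value: a lower floor (25th percentile), a higher one (75th) or none, a median ratio of 0, quantile or lowess scaling, the mean of all probe sets, and leaving out suffixed probe sets. Log2 ratios ran from 0.52 to 1.34 for Sdr16c5, from 1.18 to 1.25 for Cyp26b1, from -1.57 to -1.29 for Aldh1a3 and from -1.86 to -1.58 for Crabp1. For Adh1 the values were lower bounds between 1.87 and 1.99, set by the floor, and 2.68 where its control signal of 42 was left as it was, which is a ratio to a signal under 67.7. The values at the 75th percentile for Sdr16c5 and Crabp1 are also bounds. With the floor at the 75th percentile, 1 retinoid gene was at least 2-fold higher and the median over the 6 still measured was -0.11. Adh1 was no longer measured there, and the control signal of Sdr16c5 was raised to the floor, which left it within 2-fold. Without suffixed probe sets 1 was at least 2-fold lower, because the only probe set of Crabp1 has a suffix.

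Over all genes, the counts at least 2-fold higher and lower were 1120 and 934 with the floor at the 25th percentile, 2229 and 1900 with none, and 49 and 106 at the 75th percentile. With the lower floor and with none, uptake and storage genes had 2 and 3 higher and 2 and 3 lower. Other oxidoreductases had 2 and 3 higher, late differentiation genes 1 and 2 higher, response genes 2 and 3 lower, and receptors and carriers 1 lower in each. With no floor, 4 response genes and 1 other CYP26 gene were higher and 1 other oxidoreductase lower. At the 75th percentile, and without suffixed probe sets, 0 other oxidoreductases were higher. The late differentiation median was -0.21 at the 75th percentile, and the uptake and storage median 0.42 without suffixed probe sets. The cause was not tested beyond the number of genes measured.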
